A study of Caenorhabditis elegans with 12 samples.

Results

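Caenorhabditis elegans larvae that hatch without bacteria halt in the first larval stage, L1, and resume growth once they are fed. During this arrest, known as L1 diapause, insulin-like signalling is low, the FOXO factor DAF-16 holds back cell division, and the larva lives on stores laid down in the egg. This account covers starvation arrest set against feeding at low salt: 3 libraries of whole larvae kept without food on 100 mM NaCl (unfed A, B and C) and 3 libraries of larvae kept with Escherichia coli OP50, the standard laboratory food, on 100 mM NaCl (fed A, B and C). The libraries were taken by their labels, 6 of the 12 in the series. The other 6 hold unfed and fed larvae kept on 500 mM NaCl. They enter here through the choice of genes tested, the scaling, the shared estimate of spread and a final comparison of food effects. With the 6 low-salt libraries alone, 15118 genes were tested instead of 18028.

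All 6 libraries come from the wild-type strain N2, with no mutation, transgene or drug in either group. Bleached embryos were spread at 5000 per 10 cm plate and kept for 24 h at 25 °C before whole larvae were washed off and frozen. The labels give 20 °C for the stocks beforehand, whereas a notes sheet deposited with the authors' tables gives 25 °C for the generation before bleaching. Fed larvae had 24 h in which to develop, so the presence of food and progress through the L1 stage cannot be told apart in this design. The labels do not say how the replicates of a group were raised, so p-values measure the spread between these libraries. Levels are read counts scaled to 1000000 per library (CPM) with the trimmed mean of M values. The 3 values of a group are given in the order A, B, C. After them stand in brackets the log2 fold change, unfed over fed, with its standard error, and the adjusted p of edgeR's quasi-likelihood test.

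Stage and tissue markers were read first. The sperm genes msp-3 and msp-10 lay between 0 and 0.186 CPM in the 6 libraries, and the adult genes vit-1 to vit-6 and col-19 between 0 and 8.59 CPM. Embryonic markers were mixed. The early endoderm genes end-1 and med-1 did not exceed 0.559 CPM, and pie-1 and oma-1 lay between 1.79 and 5.24 CPM. The RNA-binding gene mex-3 lay between 43.7 and 55.5 CPM in unfed and between 42.8 and 53.1 CPM in fed libraries. The cold-shock domain gene cey-2 had 8.38, 5.95 and 9.36 CPM in unfed A, B and C, against 34.6, 33.7 and 26.7 CPM in fed A, B and C, and mex-5 had 6.29, 4.07 and 8.25 CPM unfed, against 12.4, 12.9 and 16.7 CPM fed. Both were called lower without food (edgeR adjusted p = 0.00357 for cey-2 and 0.0331 for mex-5). These genes are also known from the germline. cey-2 kept the call whichever 1 of the 12 libraries was left out (adjusted p up to 0.0327). mex-5 lost the call without unfed A or B or fed A, B or C (adjusted p up to 0.155). The intestinal factor elt-2 lay between 20.6 and 28.2 CPM and the synaptic vesicle gene snb-1 between 256 and 328 CPM. Another intestinal marker, an actin gene, had 376, 342 and 963 CPM unfed, against 1352, 1408 and 1650 CPM fed (log2 -1.39 ± 0.37, adjusted p = 0.036). It lost the call without unfed A or B, fed A, B or C or fed high-salt A or B (adjusted p up to 0.178). The remaining intestinal markers had log2 fold changes of -0.63, -0.25 and 0.10 and were not called. The epidermal marker nhr-23 lay between 33.45 and 76.8 CPM. The muscle myosin unc-54 had 2313, 1141 and 2854 CPM unfed, against 3207, 4187 and 5789 CPM fed (log2 -1.06 ± 0.36, adjusted p = 0.0808). Another muscle marker, myo-2, went the other way (log2 0.765 ± 0.38, adjusted p = 0.212). Intestine, neurons, epidermis and muscle were thus detected in both groups. In the list of intestine identity and lumen, 3 of 23 genes were lower and 1 higher. The share of each tissue was not tested.

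Unfed libraries held 16109742, 18759684 and 18219252 reads on genes and fed libraries 16352879, 16622162 and 76542711. Unfed C stood apart from its group. Its log CPM correlated at 0.944 and 0.945 with unfed A and B but at 0.960, 0.961 and 0.967 with fed A, B and C (across genes, which are not replicates). Reads that fell outside annotated genes made up 5.90%, 5.85% and 2.56% of aligned reads in unfed A, B and C, against 2.20%, 2.01% and 1.87% in fed A, B and C, and ribosomal RNA made up 6.71%, 1.49% and 12.5% of reads on genes in unfed A, B and C, against 4.72%, 2.68% and 3.02% in fed A, B and C. The part of these differences in the results was not tested. The totals and most list counts are therefore given also without unfed C.

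**Figure D1:**
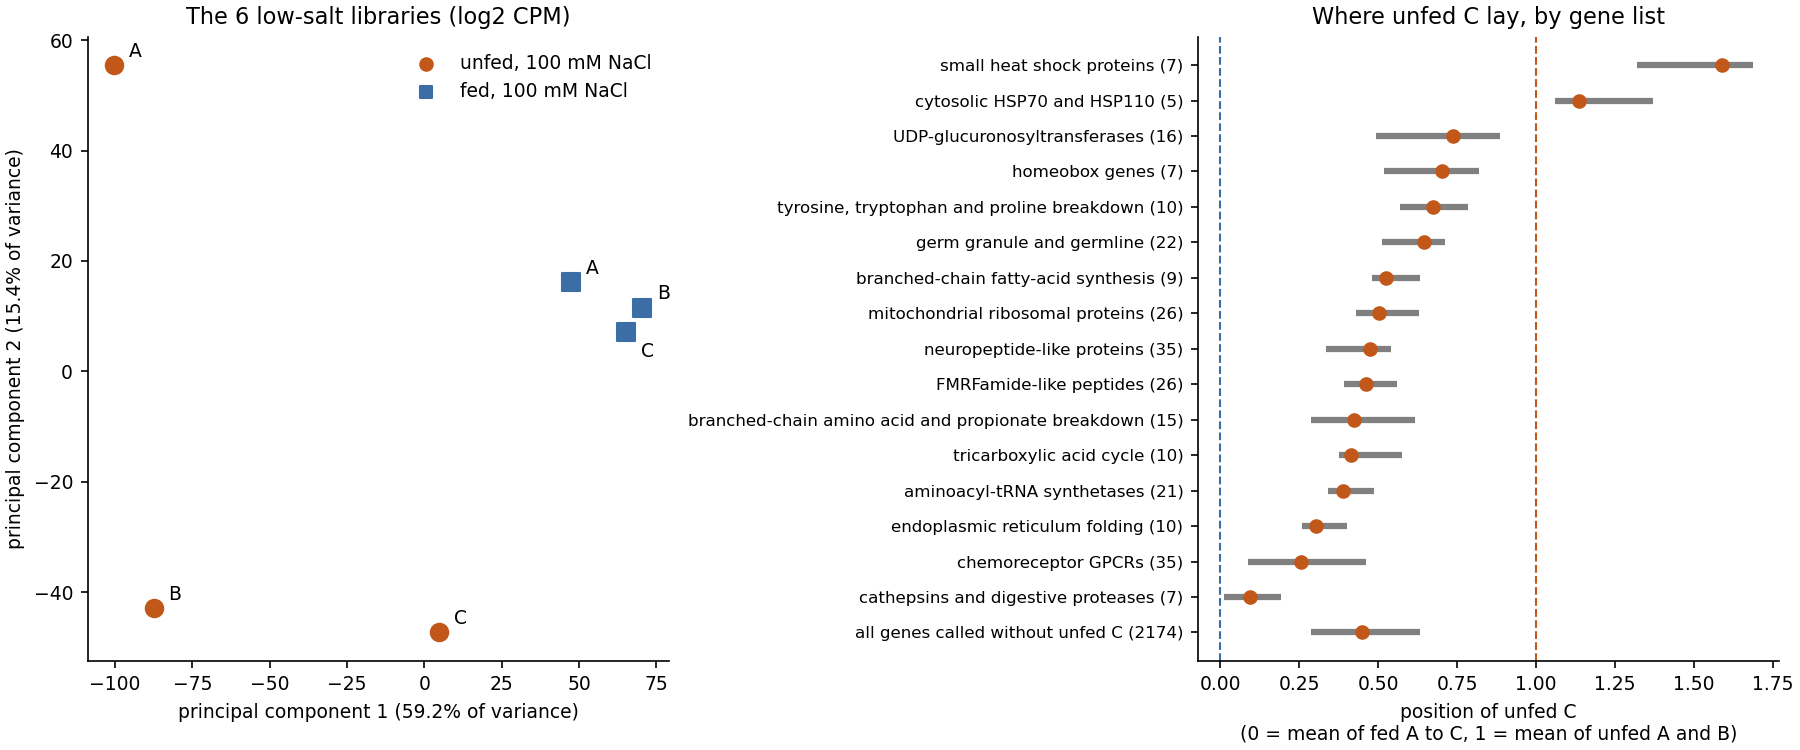
Left, the first 2 principal components of log2 CPM over the 6 low-salt libraries (unfed circles, fed squares, letters for replicates); unfed C lies at 4.77 on the first component, against -100.3 and -87.5 for unfed A and B and 47.3 to 70.4 for the fed libraries. Right, the position of unfed C on a log2 scale running between the fed mean at 0 and the mean of unfed A and B at 1, as the median (point) and interquartile range (bar) over the genes of each list called in the fit without unfed C, with the number of genes in brackets; small heat shock proteins lie past 1 and digestive proteases near 0.

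Of 18028 genes tested, 643 were higher without food, 3.57%, and 741 lower, 4.11%, so that 7.68% were called in either direction (edgeR quasi-likelihood F-test, Benjamini-Hochberg adjusted p under 0.05). The split depended on scaling, since upper-quartile factors gave 1099 higher and 548 lower and moved the median log2 fold change over every gene tested to 0.36, against 0.15 in the fit reported here. Without unfed C, 2179 of 19857 genes tested were called, 785 of them higher and 1394 lower. Those shares are the background for list counts given without that library. The 3 unfed libraries all lay above the 3 fed ones in 20.9% of genes tested and all below them in 20.5%. In the authors' deposited table, 2217 genes had a false discovery rate under 0.05, a cut applied here, with 1186 raised and 1031 reduced in unfed larvae. The calls made here shared 1381 genes with the same sign, which is 99.9% of the calls made here on genes in that table and 62.3% of theirs.

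**Figure D2:**
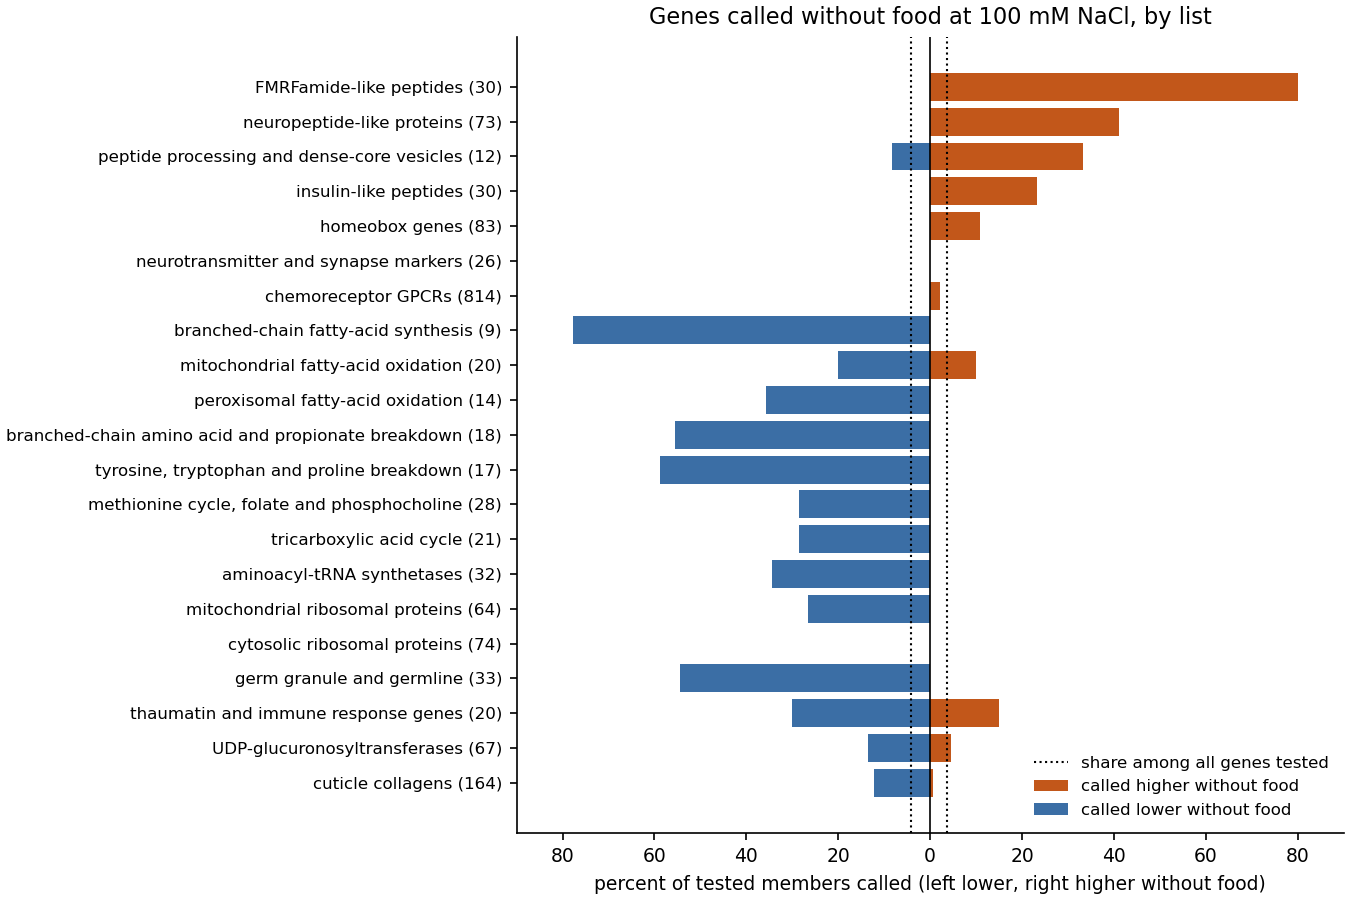
Share of each list's tested members called higher (right, orange) or lower (left, blue) without food at 100 mM NaCl, with the number tested in brackets and dotted lines at the shares among all genes, 3.57% higher and 4.11% lower. Neuropeptide lists extend to the right, and lists of amino acid breakdown, branched-chain fatty acid synthesis and the germline to the left.

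Neuropeptide genes had the highest shares of higher members among the 69 lists examined. The flp genes encode precursors of FMRFamide-related peptides and the nlp genes encode other short secreted peptides, which neurons cut from longer proteins and release from dense-core vesicles. Of 30 flp genes tested, 24 were higher and none lower, with a median log2 fold change of 1.50 beside 0.15 for all genes tested, and the unfed libraries all lay above the fed ones in 27. Of 73 nlp genes, 30 were higher and none lower, with a median of 1.19 and 46 above in every unfed library. With 1 library left out, the flp count ran from 4 (without unfed B or fed B) to 26 (reached without unfed C) among 30, and the nlp count ran from 3 (without fed B) to 39 (35 without unfed C) among 73. In bulk libraries of whole larvae, fewer cells of a type and less RNA per cell cannot be told apart.

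The flp-3 precursor had 149, 201 and 78.6 CPM unfed, against 31.9, 22.9 and 31.8 CPM fed (log2 2.31 ± 0.37, adjusted p = 0.00327). The flp-21 precursor, whose peptide acts on the feeding-behaviour receptor NPR-1, had 89.96, 159 and 53.01 CPM unfed, against 29.3, 22.95 and 26.5 CPM fed (log2 1.94 ± 0.34, adjusted p = 0.00458). Unfed B was the highest and unfed C the lowest of the unfed libraries for both, and neither group overlapped the other. The nlp-71 precursor had 48.3, 104 and 35.2 CPM unfed, against 11.2, 6.04 and 8.66 CPM fed (log2 2.86 ± 0.38, adjusted p = 0.00118), the steepest rise among called nlp genes, and nlp-51 had 29.99, 52.6 and 20.7 CPM unfed, against 7.13, 5.02 and 7.7 CPM fed (log2 2.37 ± 0.35, adjusted p = 0.00221). For nlp-5 the values were 19.01, 40.3 and 12.1 CPM unfed, against 5.55, 3.35 and 3.95 CPM fed (log2 2.48 ± 0.40, adjusted p = 0.00343). Abundant members did not all follow, since nlp-40, an intestinal peptide that times defecation, had 173, 249 and 165 CPM unfed, against 180.4, 172 and 177 CPM fed (log2 0.15 ± 0.26, adjusted p = 0.733). The epidermal antimicrobial peptide nlp-33 had 125, 168 and 186 CPM unfed, against 221, 180.4 and 202 CPM fed (log2 -0.33 ± 0.41, adjusted p = 0.617). The groups overlapped for both. Summed over tested members, flp genes reached 2733, 4439 and 1868 CPM unfed, against 1233, 908 and 1097 CPM fed. flp-3, flp-21, nlp-71, nlp-51 and nlp-5 kept the call whichever 1 of the 12 libraries was left out (adjusted p up to 0.0384). nlp-5 had a log2 fold change of 1.84 and nlp-71 of 2.25 without unfed B.

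Some enzymes that turn these precursors into peptides were higher as well. The proprotein convertase egl-3 had 1219, 1017 and 825 CPM unfed, against 384, 410.0 and 509 CPM fed (log2 1.23 ± 0.30, adjusted p = 0.0226). Its chaperone sbt-1 had 479, 667 and 289.9 CPM unfed, against 194, 163 and 198 CPM fed (log2 1.37 ± 0.31, adjusted p = 0.0168). The carboxypeptidase egl-21 had 982, 1132 and 701 CPM unfed, against 405, 358 and 446 CPM fed (log2 1.22 ± 0.28, adjusted p = 0.0192). The hydroxylating monooxygenase pghm-1, which begins amidation of the peptide end, had 363, 439.7 and 242 CPM unfed, against 166, 146 and 173 CPM fed (log2 1.11 ± 0.29, adjusted p = 0.0329). Each of these genes lay higher in all 3 unfed libraries than in any fed one. The bifunctional amidating enzyme pamn-1 was instead lower, with 23.4, 25.8 and 32.96 CPM unfed, against 48.6, 52.6 and 50.7 CPM fed (log2 -0.89 ± 0.22, adjusted p = 0.0253). These 5 were the called members among 12 tested in the list of peptide processing and dense-core vesicles, whose higher count ran from 0 (without unfed A or B or fed A, B or C) to 5 (4 without unfed C) with 1 library left out. egl-3, egl-21, sbt-1 and pamn-1 lost the call without unfed A or B or fed A, B or C (adjusted p up to 0.146). pghm-1 lost the call without unfed A or B, fed A, B or C or fed high-salt A or B (adjusted p up to 0.196).

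Other neuronal genes were read beside them. None of 26 markers of neurotransmitters and synapses was called in edgeR's test, 4 had an unadjusted p under 0.05, all of them higher, and DESeq2 called 1 higher. Their median log2 fold change was 0.21, and they summed to 1658, 1631 and 1659 CPM unfed, against 1437, 1595 and 1653 CPM fed. The synaptobrevin snb-1 had 292, 328 and 268 CPM unfed, against 269, 256 and 282 CPM fed (log2 0.14 ± 0.25, adjusted p = 0.751). Among homeobox genes, which set neuron and tissue identity, 9 of 83 were higher and none lower, a count that ran from 0 (without fed A or C) to 21 (7 without unfed C) with 1 library left out. They included ceh-36, a factor of AWC and ASE sensory neurons, with 2.64, 1.79 and 1.5 CPM unfed, against 0.244, 0.478 and 0.569 CPM fed (log2 2.14 ± 0.51, adjusted p = 0.0216), and unc-42, a factor of interneurons and sensory neurons, with 9.18, 10.1 and 8.31 CPM unfed, against 4.57, 2.39 and 4.5 CPM fed (log2 1.25 ± 0.28, adjusted p = 0.017). In the homeobox gene ceh-2 the values were 5.29, 4.81 and 3.99 CPM unfed, against 0.975, 1.67 and 1.43 CPM fed (log2 1.78 ± 0.35, adjusted p = 0.00918), and for all 3 genes every unfed library was above every fed one. ceh-36 and unc-42 lost the call without unfed A or B or fed A, B or C (adjusted p up to 0.131). ceh-2 lost the call without fed A or C (adjusted p up to 0.0583).

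**Figure D3:**
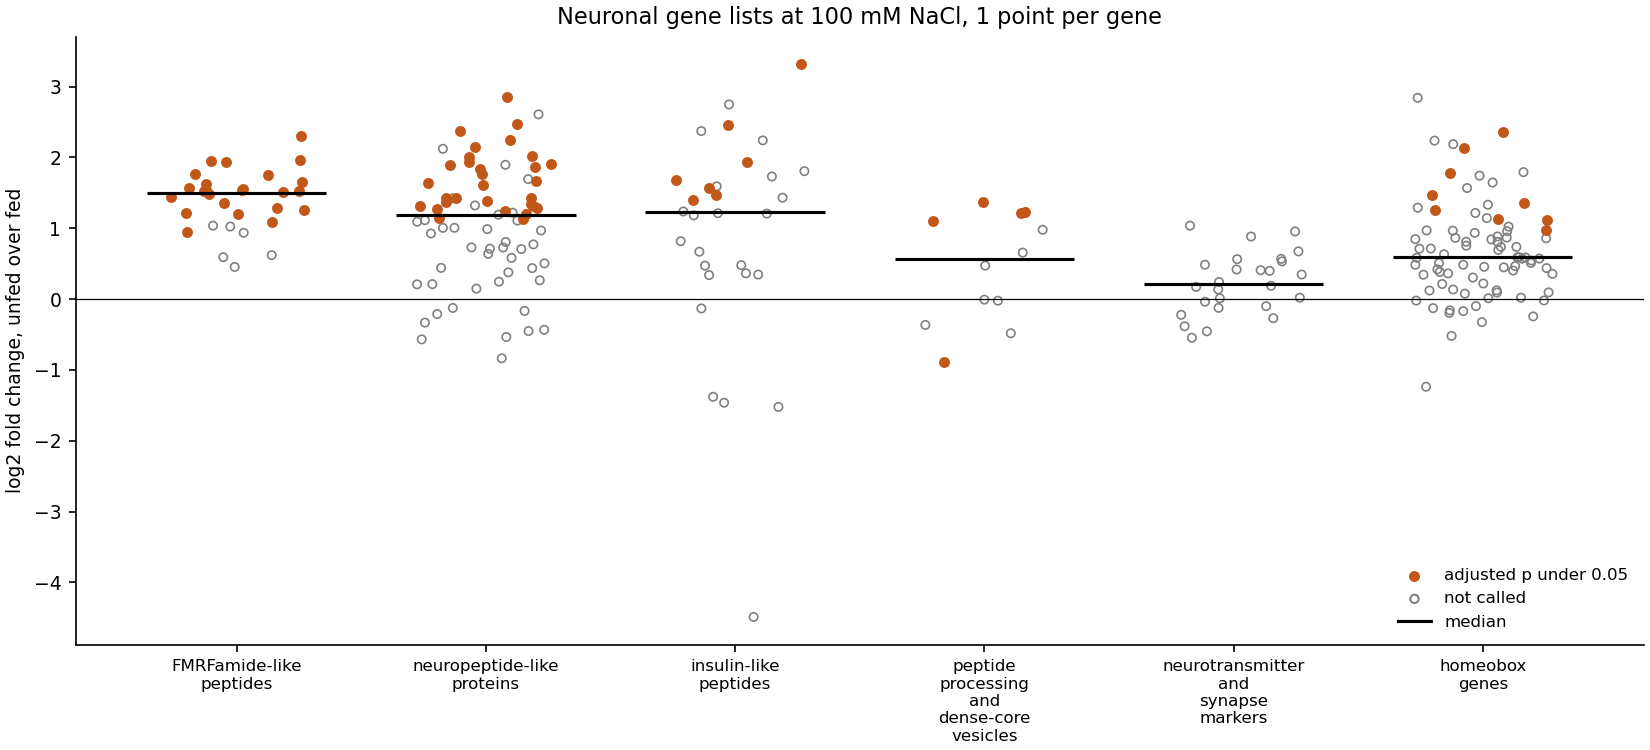
Log2 fold change of unfed over fed larvae at 100 mM NaCl for every tested gene of 6 neuronal or signalling lists, 1 point per gene (filled, adjusted p under 0.05; open, not called; line, median). All 30 flp genes lie above 0 and 24 are filled, whereas no point of the neurotransmitter and synapse list is filled.

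Insulin-like peptides, ligands of the receptor DAF-2, had 7 of 30 members higher and none lower, and the count ran from 0 (without unfed B or fed B) to 10 (9 without unfed C) with 1 library left out. The ins-17 gene had 99.6, 155 and 52.95 CPM unfed, against 35.8, 28.7 and 31.7 CPM fed (log2 1.68 ± 0.33, adjusted p = 0.00918). The gene ins-1 had 39.2, 55.4 and 30.4 CPM unfed, against 14.6, 14.3 and 18.2 CPM fed (log2 1.40 ± 0.27, adjusted p = 0.00744). Unfed C was the lowest unfed library for both but above all fed ones. In the receptor gene daf-2 the values were 177, 135 and 169.7 CPM unfed, against 109, 128 and 141 CPM fed (log2 0.35 ± 0.32, adjusted p = 0.488). The agonist ligand gene daf-28 had 50.7, 37.8 and 54.1 CPM unfed, against 27.97, 26.5 and 57.3 CPM fed (log2 0.35 ± 0.32, adjusted p = 0.491). The FOXO gene daf-16 had 230.2, 184 and 171 CPM unfed, against 161, 185 and 213 CPM fed (log2 0.07 ± 0.26, adjusted p = 0.885). The DAF-16 target sod-3 was at 4.94, 2.84 and 0.775 CPM unfed, against 1.22, 1.49 and 1.35 CPM fed (log2 1.08 ± 0.58, adjusted p = 0.244), and the cyclin-dependent kinase inhibitor cki-1, which holds the arrest, at 39.4, 45.7 and 41.3 CPM unfed, against 37.8, 33.2 and 29.6 CPM fed (log2 0.33 ± 0.24, adjusted p = 0.395). None of these 5 passed the test. In the list of genes raised by DAF-16, 2 of 19 were higher (10.5%, beside 3.57% of all genes) and none lower. The median log2 fold change of that list was -0.06. Its higher count ran from 0 (without unfed B or fed B or C) to 3 (1 without unfed C) with 1 library left out. The cyclin D gene cyd-1, which drives entry into the cell cycle, was higher, at 33.3, 24.7 and 35.5 CPM unfed, against 14.1, 16.5 and 15.96 CPM fed (log2 1.00 ± 0.26, adjusted p = 0.0288), the only one of 33 tested genes of DNA replication and the cell cycle to be called. ins-17 lost the call without unfed B or fed B or C (adjusted p up to 0.0708). ins-1 lost the call without unfed B or fed A or B (adjusted p up to 0.0723). cyd-1 lost the call without unfed A, B or C, fed A, B or C or fed high-salt B or C (adjusted p up to 0.151).

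Chemoreceptor genes, the large families of G protein-coupled receptors for odours and other chemicals, were mostly at low levels. In the fit reported here, 17 of 814 tested were higher and none lower. That share, 2.09%, was below the 3.57% of all genes, although their median log2 fold change was 1.83. Their median level was 0.998, 0.656 and 0.277 CPM in unfed A, B and C, against 0.244, 0.179 and 0.172 CPM in fed A, B and C. A similar tilt held for weakly detected genes in general, as the 3950 tested genes with a mean under 1 CPM had a median log2 fold change of 1.53, and the 694 chemoreceptors among them 1.91. Unfed A and B, with the higher values, were also the libraries with more reads outside genes, and the part of that in this tilt was not tested. Of 1300 chemoreceptors listed, 814 passed the filter on counts. With the low-salt libraries alone 251 passed it, and their median log2 fold change was 1.37. The filter keeps a weak gene by the libraries in which it is highest, so it can favour genes higher in 1 group. The part of the filter in these medians was not tested. Summed over all members, chemoreceptors held 1232, 1121 and 576 CPM unfed, against 478, 386 and 424 CPM fed. The diacetyl receptor odr-10 of AWA olfactory neurons was among the called ones, with 22.6, 38.6 and 7.26 CPM unfed, against 4.21, 4.66 and 3.97 CPM fed (log2 2.42 ± 0.44, adjusted p = 0.00627), and so was str-112, with 8.83, 15.9 and 4.27 CPM unfed, against 1.46, 0.777 and 2.05 CPM fed (log2 2.72 ± 0.58, adjusted p = 0.0136). The higher count ran from 1 (without unfed B or fed A or B) to 105 (without unfed high-salt A) with 1 library left out. The 105 were among 857 tested, beside 1578 of all 18392 genes. With the low-salt libraries alone 85 of 251 were higher, beside 1784 of all 15118. Both shares were above those of all genes. The share stayed below without unfed C (36 of 1114, beside 785 of 19857). It also did with upper-quartile factors (19 of 814, beside 1099 of 18028). odr-10 kept the call whichever 1 of the 12 libraries was left out (adjusted p up to 0.0478). str-112 lost the call without unfed B or fed A or B (adjusted p up to 0.107). odr-10 had a log2 fold change of 1.78 without unfed B.

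Most genes for the synthesis of monomethyl branched-chain fatty acids, which larvae need in order to leave L1 arrest, were lower. Of 9 tested genes, 7 were lower and none higher, and all 9 lay lower in every unfed library. The lower count ran from 2 (without unfed A or B or fed A, B or C) to 9 (reached without unfed C) with 1 library left out. The acyl-CoA synthetase acs-1 had 57.9, 66.1 and 97.2 CPM unfed, against 125, 174 and 199.8 CPM fed (log2 -1.17 ± 0.30, adjusted p = 0.0302). The dehydratase hpo-8 had 69.4, 105 and 97.4 CPM unfed, against 195, 169.8 and 189.9 CPM fed (log2 -1.03 ± 0.23, adjusted p = 0.0169). The enoyl reductase art-1 had 81.4, 96.9 and 138 CPM unfed, against 223, 212 and 241 CPM fed (log2 -1.10 ± 0.26, adjusted p = 0.0226). In each, every unfed library was below every fed one. The elongase elo-5 had 6.14, 10.9 and 21.5 CPM unfed, against 97.3, 105 and 114 CPM fed (log2 -3.04 ± 0.41, adjusted p = 0.00118), with unfed C nearest the fed level. The branched-chain keto acid dehydrogenase subunit bckd-1B, which makes the primers, had 52.8, 57.4 and 83.4 CPM unfed, against 124, 129 and 130.4 CPM fed (log2 -0.99 ± 0.25, adjusted p = 0.0252). elo-5 kept the call whichever 1 of the 12 libraries was left out (adjusted p up to 0.0126). acs-1 lost the call without unfed A or B, fed A, B or C or fed high-salt B (adjusted p up to 0.158). hpo-8, art-1 and bckd-1B lost the call without unfed A or B or fed A, B or C (adjusted p up to 0.146). elo-5 had a log2 fold change of -3.74 without unfed C.

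Other lipid genes moved in both directions. In mitochondrial fatty acid oxidation, 4 of 20 genes were lower and 2 higher, the lower count running from 2 (without unfed A or B or fed A, B or C) to 8 (reached without unfed C) with 1 library left out. The enoyl-CoA hydratase homologue ech-7 had 8.38, 12.5 and 15.8 CPM unfed, against 82.4, 70.8 and 80.2 CPM fed (log2 -2.67 ± 0.31, adjusted p = 0.000554). The thiolase kat-1 had 76.1, 78.1 and 166 CPM unfed, against 275, 279.7 and 304 CPM fed (log2 -1.42 ± 0.31, adjusted p = 0.015). The acyl-CoA synthetase acs-2, a gene raised by fasting through NHR-49 in older worms, had 29.9, 19.98 and 124 CPM unfed, against 419, 390.2 and 526 CPM fed (log2 -2.94 ± 0.71, adjusted p = 0.0264). The carnitine palmitoyltransferase homologues cpt-3 and cpt-5 were higher, with 11.3, 11.5 and 6.15 CPM unfed, against 1.58, 0.897 and 1.24 CPM fed for cpt-3 (log2 2.96 ± 0.69, adjusted p = 0.0196) and 36.1, 26.9 and 23.4 CPM unfed, against 11.2, 11.7 and 8.2 CPM fed for cpt-5 (log2 1.48 ± 0.37, adjusted p = 0.0267). The most abundant member of the list, cpt-1, had 604, 396 and 756 CPM unfed, against 443, 511 and 559.9 CPM fed (log2 0.21 ± 0.28, adjusted p = 0.635). Among lipid-binding proteins the fatty acid- and retinol-binding far-2 was lower, with 52.1, 49.8 and 96.7 CPM unfed, against 451, 683 and 288 CPM fed (log2 -2.84 ± 0.36, adjusted p = 0.00107), and its relative far-3 higher, with 216, 249.5 and 56.7 CPM unfed, against 39.3, 50.6 and 20.6 CPM fed (log2 2.24 ± 0.51, adjusted p = 0.0175). The cytosolic carriers diverged too, as lbp-6 had 127, 166 and 259 CPM unfed, against 575, 429 and 552 CPM fed (log2 -1.49 ± 0.35, adjusted p = 0.0201). The gene lbp-1 had 99.3, 147 and 44.4 CPM unfed, against 28.8, 20.6 and 24.8 CPM fed (log2 1.97 ± 0.38, adjusted p = 0.00829). ech-7 and far-2 kept the call whichever 1 of the 12 libraries was left out (adjusted p up to 0.011). kat-1, acs-2, cpt-3, cpt-5, far-3 and lbp-6 lost the call without unfed A or B or fed A, B or C (adjusted p up to 0.138). lbp-1 lost the call without unfed B or fed B (adjusted p up to 0.0658). acs-2 had a log2 fold change of -4.28 without unfed C. The acs-2 call was also lost with a replicate block (adjusted p = 0.0599).

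In peroxisomal fatty acid oxidation, the pathway that also shortens the side chains of ascaroside pheromones, 5 of 14 genes were lower and none higher, and 11 lay lower in every unfed library. The acyl-CoA oxidase acox-1.2 had 5.84, 3.28 and 3.99 CPM unfed, against 48.3, 118 and 26.3 CPM fed (log2 -3.87 ± 0.47, adjusted p = 0.000663). This gene belongs to a cluster of near copies, so reads may be split between them. The hydratase maoc-1 had 68.95, 69.4 and 76.9 CPM unfed, against 177, 152 and 121 CPM fed (log2 -1.06 ± 0.25, adjusted p = 0.0211). The dehydrogenase dhs-28 had 186, 179.6 and 195 CPM unfed, against 370.5, 361 and 310.2 CPM fed (log2 -0.89 ± 0.26, adjusted p = 0.0486). The thiolase daf-22 had 169, 132 and 169.6 CPM unfed, against 339, 324 and 252 CPM fed (log2 -0.96 ± 0.25, adjusted p = 0.0294). These enzymes carry out the next 3 steps. In all 4, unfed C lay beside unfed A and B and below every fed library. The count ran from 1 (without unfed A or B or fed A, B or C) to 8 (7 without unfed C) with 1 library left out. acox-1.2 kept the call whichever 1 of the 12 libraries was left out (adjusted p up to 0.00802). maoc-1 lost the call without unfed A or B or fed A, B or C (adjusted p up to 0.112). dhs-28 lost the call without unfed A or B, fed A, B or C or fed high-salt A or B (adjusted p up to 0.197). daf-22 lost the call without unfed A or B, fed A, B or C or fed high-salt B (adjusted p up to 0.153). acox-1.2 had a log2 fold change of -3.11 without fed B.

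Amino acid breakdown genes were counted in 2 lists. All 18 tested genes of branched-chain amino acid and propionate breakdown lay lower in every unfed library, beside 20.5% of all genes, and 10 passed the test, a count that ran from 0 (without unfed A or B or fed B or C) to 15 (reached without unfed C) with 1 library left out. The isovaleryl-CoA dehydrogenase ivd-1 had 63.4, 56.2 and 97.9 CPM unfed, against 209.7, 214 and 233 CPM fed (log2 -1.59 ± 0.34, adjusted p = 0.0132). The acyl-CoA dehydrogenase acdh-9 had 43.7, 44.5 and 96.4 CPM unfed, against 163, 168 and 174 CPM fed (log2 -1.45 ± 0.34, adjusted p = 0.0197). The hydratase ech-6 had 152, 187 and 501 CPM unfed, against 821, 806 and 765 CPM fed (log2 -1.51 ± 0.42, adjusted p = 0.0387). The dehydrogenase hphd-1, of the B12-independent propionate shunt, had 98.1, 95.3 and 419 CPM unfed, against 600.4, 563 and 626 CPM fed (log2 -1.55 ± 0.50, adjusted p = 0.0673). Unfed C was the highest unfed library in these 4, and in ech-6 and hphd-1 it stood nearer to the fed libraries than to unfed A and B. ivd-1 lost the call without unfed A or B or fed B or C (adjusted p up to 0.0978). acdh-9 lost the call without unfed A or B or fed A, B or C (adjusted p up to 0.123). ech-6 lost the call without unfed A or B, fed A, B or C or fed high-salt B (adjusted p up to 0.182). acdh-9 had a log2 fold change of -2.05 and ech-6 of -2.34 without unfed C. The gene hphd-1 had a log2 fold change of -2.74 (adjusted p = 0.000884) without unfed C.

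For tyrosine, tryptophan and proline breakdown, 10 of 17 genes were lower and none higher, and the count ran from 4 (without unfed A or B or fed B or C) to 11 (10 without unfed C) with 1 library left out. The ornithine aminotransferase oatr-1 had 22.4, 22.6 and 55.9 CPM unfed, against 153, 180.2 and 165 CPM fed (log2 -2.30 ± 0.36, adjusted p = 0.00276). The tryptophan dioxygenase tdo-2 had 24.9, 33.7 and 55.9 CPM unfed, against 135, 176 and 160.1 CPM fed (log2 -2.04 ± 0.33, adjusted p = 0.00329). The gene kynu-1, kynureninase, a later enzyme of that pathway, had 20.5, 30.7 and 29.6 CPM unfed, against 53.9, 56.7 and 69.8 CPM fed (log2 -1.16 ± 0.24, adjusted p = 0.0122). The last enzymes of tyrosine breakdown were both lower, with 7.08, 6.86 and 11.3 CPM unfed, against 27.5, 29.2 and 32.1 CPM fed for the maleylacetoacetate isomerase gst-42 (log2 -1.82 ± 0.34, adjusted p = 0.00682) and 37.97, 45.6 and 63.7 CPM unfed, against 166, 163 and 183 CPM fed for fumarylacetoacetase, fah-1 (log2 -1.80 ± 0.29, adjusted p = 0.00351). Groups did not overlap in any of these genes. oatr-1, tdo-2 and fah-1 kept the call whichever 1 of the 12 libraries was left out (adjusted p up to 0.0328). kynu-1 lost the call without unfed A or fed B or C (adjusted p up to 0.0793). gst-42 lost the call without unfed B (adjusted p up to 0.051). oatr-1 had a log2 fold change of -2.999 without unfed C.

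One-carbon and phosphatidylcholine genes gave 8 lower and none higher of 28, and the count ran from 3 (without unfed A or B) to 10 (reached without unfed C) with 1 library left out. The enzyme pcyt-1, which activates phosphocholine, had 14.97, 15.1 and 15.3 CPM unfed, against 51.6, 71.2 and 52.6 CPM fed (log2 -1.95 ± 0.26, adjusted p = 0.00118). Its 3 unfed libraries were almost equal. The phosphoethanolamine methyltransferase pmt-2 had 94.1, 109.7 and 328 CPM unfed, against 696, 699 and 758 CPM fed (log2 -2.02 ± 0.45, adjusted p = 0.0155). The gene pmt-1, which acts before it, had 703, 788 and 436 CPM unfed, against 570.5, 514 and 589.7 CPM fed (log2 0.20 ± 0.29, adjusted p = 0.666). The serine hydroxymethyltransferase mel-32 had 96.9, 116 and 309 CPM unfed, against 642, 675 and 656 CPM fed (log2 -1.92 ± 0.38, adjusted p = 0.00925). The formyltetrahydrofolate dehydrogenase alh-3 had 89.9, 72.8 and 130.4 CPM unfed, against 287, 276 and 294 CPM fed (log2 -1.55 ± 0.28, adjusted p = 0.00572). In the tricarboxylic acid cycle list, 6 of 21 were lower and none higher, 20 of 21 lay lower in every unfed library, and the count ran from 1 (without unfed A or B or fed B) to 10 (reached without unfed C) with 1 library left out. The NADP-dependent isocitrate dehydrogenase idh-1 had 206, 200.1 and 318 CPM unfed, against 806, 794 and 838 CPM fed (log2 -1.75 ± 0.26, adjusted p = 0.00206). The succinyl-CoA ligase subunit sucg-1 had 14.6, 19.2 and 36.2 CPM unfed, against 58.4, 69.2 and 56.5 CPM fed (log2 -1.40 ± 0.30, adjusted p = 0.0146), and the abundant citrate synthase cts-1 had 727, 708 and 1073 CPM unfed, against 1295, 1185 and 1410.3 CPM fed (log2 -0.63 ± 0.27, adjusted p = 0.149). The glyoxylate cycle enzyme icl-1 had 1446, 796 and 3222 CPM unfed, against 2916, 2695 and 3316 CPM fed (log2 -0.71 ± 0.40, adjusted p = 0.263), with unfed C at the fed level, and without that library the log2 fold change was -1.53 (adjusted p = 0.0137). pcyt-1, alh-3 and idh-1 kept the call whichever 1 of the 12 libraries was left out (adjusted p up to 0.0494). pmt-2 lost the call without unfed A or B or fed B or C (adjusted p up to 0.107). mel-32 lost the call without unfed A or B (adjusted p up to 0.0702). sucg-1 lost the call without unfed A or B or fed B (adjusted p up to 0.103). mel-32 had a log2 fold change of -2.74 and pmt-2 of -2.93 without unfed C.

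Among carbohydrate enzymes more were lower than higher. In glycolysis, which splits glucose to pyruvate, 7 of 20 genes were lower and 1 higher, 17 lay lower in every unfed library, and the lower count ran from 0 (without unfed A or B or fed B or C) to 11 (9 without unfed C) with 1 library left out. The enolase enol-1 had 303, 328 and 479 CPM unfed, against 874, 818 and 1040.4 CPM fed (log2 -1.30 ± 0.28, adjusted p = 0.0146). The aldolase aldo-2 had 381, 406 and 480.3 CPM unfed, against 961, 841 and 1054 CPM fed (log2 -1.17 ± 0.30, adjusted p = 0.0278), and the lactate dehydrogenase ldh-1 had 59.4, 62.2 and 79.9 CPM unfed, against 153, 158 and 172 CPM fed (log2 -1.26 ± 0.27, adjusted p = 0.0135). The higher member was pfk-1.2, a phosphofructokinase, with 3.79, 1.75 and 3.27 CPM unfed, against 0.853, 0.777 and 0.886 CPM fed (log2 1.79 ± 0.39, adjusted p = 0.0147). In gluconeogenesis, the glyoxylate cycle and storage sugars, 4 of 16 were lower and none higher, and the count ran from 2 (without unfed A or B or fed A, B or C) to 9 (reached without unfed C) with 1 library left out. The phosphoenolpyruvate carboxykinase pck-2 had 415, 410.4 and 746 CPM unfed, against 1256, 1304 and 1546 CPM fed (log2 -1.39 ± 0.35, adjusted p = 0.0279), and gob-1, the phosphatase that acts on trehalose 6-phosphate, had 49.1, 45.3 and 77.8 CPM unfed, against 113, 129.9 and 131 CPM fed (log2 -1.12 ± 0.33, adjusted p = 0.0479). Groups did not overlap in any of these 6 genes. enol-1, aldo-2 and pck-2 lost the call without unfed A or B or fed A, B or C (adjusted p up to 0.145). ldh-1 lost the call without unfed A or B or fed B or C (adjusted p up to 0.0893). pfk-1.2 lost the call without unfed A or fed A, B or C (adjusted p up to 0.0844). gob-1 lost the call without unfed A or B, fed A, B or C or fed high-salt A, B or C (adjusted p up to 0.204).

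Nutrient sensors and recycling pathways gave no call in the edgeR fit reported here. Of 24 genes of the energy sensor AMPK and the growth kinase TOR none was called, 2 were higher and 2 lower at an unadjusted p under 0.05, and DESeq2 called none. In other edgeR fits, 2 were called higher with the 6 low-salt libraries alone and 1 lower without unfed C. Without unfed high-salt A 1 was called higher, and with upper-quartile factors 1. The AMPK subunit aak-2 had 160.4, 131 and 209 CPM unfed, against 158, 162 and 174 CPM fed (log2 0.02 ± 0.38, adjusted p = 0.982). Of 28 autophagy genes none was called, 1 was higher and 1 lower at an unadjusted p under 0.05, and DESeq2 called 1 higher. With the 6 low-salt libraries alone edgeR called 1 higher and 2 lower. It called 1 higher with upper-quartile factors and 1 lower without unfed high-salt A. The autophagosome protein lgg-1 had 736, 1031 and 831 CPM unfed, against 905, 716 and 821 CPM fed (log2 0.09 ± 0.34, adjusted p = 0.886). The groups overlapped for both. Of 20 genes of the vacuolar proton pump, which acidifies lysosomes, none was called, 9 were lower at an unadjusted p under 0.05, DESeq2 called 6 lower, and 9 were called lower without unfed C. With the 6 low-salt libraries alone 4 were called lower, and without unfed high-salt A 5.

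Genes of the translation apparatus were counted in 5 lists. None of 74 cytosolic ribosomal protein genes was called in edgeR's test, and 1 was lower at an unadjusted p under 0.05 and with DESeq2. The edgeR test also called 1 lower with the 6 low-salt libraries alone, without unfed high-salt A or without fed high-salt C. The rpl-3 gene stood at 3731, 3972 and 4393 CPM unfed, against 4313, 4278 and 4079 CPM fed (log2 -0.07 ± 0.26, adjusted p = 0.888). Of 64 mitochondrial ribosomal protein genes, 17 were lower and none higher, 55 lay lower in every unfed library, and the count ran from 0 (without unfed A or B or fed A, B or C) to 29 (26 without unfed C) with 1 library left out. Their members included mrps-15, with 14.6, 17.7 and 22.8 CPM unfed, against 40.2, 41.5 and 34.2 CPM fed (log2 -1.07 ± 0.24, adjusted p = 0.0164), and mrpl-11, with 25.3, 35.9 and 40.4 CPM unfed, against 75.6, 78 and 60.8 CPM fed (log2 -1.08 ± 0.26, adjusted p = 0.0212). Of 32 aminoacyl-tRNA synthetases, which load amino acids on tRNA, 11 were lower and none higher and 28 lay lower in every unfed library, the count running from 0 (without unfed A or B or fed A, B or C) to 21 (reached without unfed C) with 1 library left out. The asparaginyl enzyme nars-1 had 67.95, 63.4 and 101 CPM unfed, against 167, 196 and 169 CPM fed (log2 -1.19 ± 0.28, adjusted p = 0.0192). The mitochondrial isoleucyl enzyme iars-2 had 27.1, 15.3 and 40.6 CPM unfed, against 52.6, 64.3 and 66.9 CPM fed (log2 -1.15 ± 0.29, adjusted p = 0.0265). Of 38 translation factors 2 were lower (5.26%), and of 21 genes of the nucleolus and ribosome biogenesis 1 was lower (4.76%). Both shares were near the 4.11% of all genes, and none was higher in either list. Without unfed C the lower counts were 17 and 6, beside 1394 of all 19857 genes tested in that fit. Of 33 proteasome genes none was called in edgeR's test, yet 30 lay lower in every unfed library, with a median log2 fold change of -0.64. An unadjusted p under 0.05 was reached by 24, all lower, and DESeq2 called 14 lower. The edgeR test called 10 lower without unfed C, 11 with the 6 low-salt libraries alone and 8 without unfed high-salt A. mrps-15, mrpl-11, nars-1 and iars-2 lost the call without unfed A or B or fed A, B or C (adjusted p up to 0.131).

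Chaperone genes were counted by family. All 5 tested genes of the cytosolic HSP70 and HSP110 list were lower, with the same count without unfed C, and so were 8 of 16 small heat shock genes, with none higher. The count of 5 fell to 4 without unfed A or B or fed A, B or C. Of these 5 genes, 2 had almost equal CPM in every low-salt library, so they may share reads. They had 85.9 and 89.9 CPM in unfed A, against 1071 and 1100 CPM in fed A. Of 11 genes of HSP90 and its partners 2 were lower, of 29 J-domain proteins 3 and of 14 chaperonin and prefoldin genes 2, with none higher in these 3 lists. Those shares were 18.2%, 10.3% and 14.3%, beside 4.11% of all genes. Without unfed C those counts were 3, 6 and 5. With 1 library left out they ran from 0 (all 3 without unfed B or fed B) to 5, 7 and 7. The nucleotide exchange partner hsp-110 had 133, 109 and 129 CPM unfed, against 614, 677 and 523 CPM fed (log2 -2.29 ± 0.37, adjusted p = 0.00331). The small heat shock gene hsp-12.3 had 2.35, 1.97 and 1.83 CPM unfed, against 12.4, 13.8 and 6.19 CPM fed (log2 -2.38 ± 0.40, adjusted p = 0.00417). The inducible BiP gene hsp-4 of the endoplasmic reticulum had 69.2, 48.5 and 60.5 CPM unfed, against 183, 288 and 215 CPM fed (log2 -1.95 ± 0.29, adjusted p = 0.0025). Unfed C lay between unfed A and B for hsp-110 and hsp-4 and below both for hsp-12.3. The abundant chaperone hsp-90 had 3022, 2631 and 1549 CPM unfed, against 2299, 2585 and 2096 CPM fed (log2 0.05 ± 0.29, adjusted p = 0.932), with overlapping groups, and the heat shock factor gene hsf-1 had 90.4, 34.5 and 53.95 CPM unfed, against 54.4, 40.05 and 55.9 CPM fed (log2 0.25 ± 0.67, adjusted p = 0.833). Summed, small heat shock genes held 537, 631 and 361 CPM unfed, against 2101, 1753 and 1261 CPM fed. The small heat shock count ran from 1 (without unfed A or B or fed A or B) to 9 (7 without unfed C) with 1 library left out, and near-identical pairs of hsp-16 genes may share reads. hsp-110, hsp-12.3 and hsp-4 kept the call whichever 1 of the 12 libraries was left out (adjusted p up to 0.0327).

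Mitochondrial chaperones and their regulators had 4 of 8 members lower and none higher, and the count ran from 0 (without unfed A or B or fed A, B or C) to 5 (4 without unfed C) with 1 library left out. The matrix chaperone hsp-60 had 109, 91.6 and 334 CPM unfed, against 512, 592 and 502 CPM fed (log2 -1.59 ± 0.42, adjusted p = 0.0333), and the mitochondrial HSP70 gene hsp-6 had 306, 265 and 444 CPM unfed, against 672, 809.8 and 777 CPM fed (log2 -1.15 ± 0.27, adjusted p = 0.021). The factor atfs-1, which switches on these chaperones under mitochondrial stress, had 73.6, 65.5 and 87.2 CPM unfed, against 115, 150.3 and 179.7 CPM fed (log2 -0.98 ± 0.26, adjusted p = 0.0317). Among muscle contractile proteins, 3 of 24 were lower and 1 higher, and the lower count ran from 0 (without unfed A or B or fed B or C) to 7 (reached without unfed C) with 1 library left out. They split within troponin, the calcium switch of the thin filament. The troponin T gene tnt-2 had 173, 142 and 296 CPM unfed, against 501, 519 and 709 CPM fed (log2 -1.50 ± 0.32, adjusted p = 0.0143), and the troponin I gene unc-27 had 172, 177 and 297 CPM unfed, against 547, 552 and 659 CPM fed (log2 -1.45 ± 0.33, adjusted p = 0.0186). The troponin C gene tnc-2 had 121, 199 and 93.9 CPM unfed, against 73.1, 50.6 and 66.1 CPM fed (log2 1.12 ± 0.31, adjusted p = 0.0377), the called member on the higher side. Groups did not overlap in any of these 6 genes. hsp-60 lost the call without unfed A or B, fed A, B or C or fed high-salt B (adjusted p up to 0.166). hsp-6 and unc-27 lost the call without unfed A or B or fed A, B or C (adjusted p up to 0.13). atfs-1 lost the call without unfed A or B, fed A, B or C or fed high-salt A or B (adjusted p up to 0.178). tnt-2 lost the call without unfed A or B or fed B or C (adjusted p up to 0.103). tnc-2 lost the call without unfed A or B, fed A, B or C or fed high-salt A, B or C (adjusted p up to 0.235). hsp-60 had a log2 fold change of -2.53 without unfed C.

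Of 33 germline genes, 18 were lower and none higher, and the count ran from 5 (without unfed B) to 24 (22 without unfed C) with 1 library left out. The Argonaute csr-1, which marks germline-expressed genes, had 19.5, 11.2 and 29.02 CPM unfed, against 64.4, 79.97 and 76.8 CPM fed (log2 -1.89 ± 0.32, adjusted p = 0.00428). The nuclear Argonaute hrde-1, which carries inherited silencing, had 16.1, 11.9 and 27.9 CPM unfed, against 44.3, 50.5 and 64.7 CPM fed (log2 -1.52 ± 0.28, adjusted p = 0.00674). The gene wago-1, an Argonaute of secondary small RNAs, had 10.03, 10.6 and 22.5 CPM unfed, against 41.1, 47.1 and 46.6 CPM fed (log2 -1.64 ± 0.33, adjusted p = 0.01). The germ granule gene pgl-3 had 3.19, 1.79 and 4.6 CPM unfed, against 14.1, 14.6 and 11.5 CPM fed (log2 -2.07 ± 0.38, adjusted p = 0.00627). The gene iff-1, a germline form of translation factor eIF5A, had 25.4, 30.3 and 26.5 CPM unfed, against 107, 82.7 and 72.4 CPM fed (log2 -1.67 ± 0.32, adjusted p = 0.00748). Every unfed library was below every fed one in these genes, and list members summed to 644, 497 and 857 CPM unfed, against 1281, 1457 and 1606 CPM fed. csr-1, hrde-1, pgl-3 and iff-1 kept the call whichever 1 of the 12 libraries was left out (adjusted p up to 0.0492). wago-1 lost the call without unfed A or B (adjusted p up to 0.0716). wago-1 had a log2 fold change of -2.24 without unfed C.

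Linker histones, which bind DNA between nucleosomes, moved in opposite directions. The linker histone gene hil-7 had 68.95, 116 and 61.8 CPM unfed, against 14.5, 14.9 and 19.97 CPM fed (log2 2.32 ± 0.30, adjusted p = 0.00113). The gene hil-5 had 10.3, 12.02 and 20.3 CPM unfed, against 43.8, 44.8 and 40.97 CPM fed (log2 -1.60 ± 0.26, adjusted p = 0.00351). For both, groups were apart and unfed C was the unfed library nearest to the fed ones. The core histone variant H3.3 gene his-72 had 274, 337 and 305 CPM unfed, against 262, 248 and 244 CPM fed (log2 0.28 ± 0.23, adjusted p = 0.449). In all, 2 of 37 histone genes were higher (5.41%) and 3 lower (8.11%), beside 3.57% and 4.11% of all genes, and without unfed C they were 2 and 5. hil-7 and hil-5 kept the call whichever 1 of the 12 libraries was left out (adjusted p up to 0.0368).

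Developmental timing and patterning lists held few calls. Of 18 heterochronic timing genes 1 was higher (5.56%) and 2 lower (11.1%). Of 49 hedgehog-related ligands 2 were lower and none higher (4.08%, near the 4.11% of all genes). Of 28 patched-related receptors 1 was higher (3.57%, the share of all genes) and 2 lower (7.14%). Without unfed C the lower counts were 3, 4 and 4. None of 25 molting genes was called in edgeR's test, 2 were lower at an unadjusted p under 0.05, and DESeq2 called none. Without unfed C the edgeR test called 2 lower. The noncoding RNA lep-5, which promotes the larval-to-adult timing switch by acting on LIN-28, had 2.05, 1.97 and 1.5 CPM unfed, against 178, 257 and 30.3 CPM fed (log2 -6.39 ± 0.69, adjusted p = 0.000658). The gene lin-28, whose RNA-binding protein keeps early larval fates, had 133, 155 and 96.6 CPM unfed, against 52.6, 41.7 and 58.8 CPM fed (log2 1.33 ± 0.31, adjusted p = 0.0187). Fed C stood well below fed A and B for lep-5 but still above every unfed library. The patched-related receptor ptr-3 had 33.1, 28.6 and 27.03 CPM unfed, against 9.08, 11.2 and 11.4 CPM fed (log2 1.48 ± 0.24, adjusted p = 0.00329). The hedgehog-related ligand grd-3 had 22.2, 28.4 and 31.02 CPM unfed, against 93.7, 80.5 and 121 CPM fed (log2 -1.85 ± 0.27, adjusted p = 0.00206). The Notch ligand lag-2 had 13.6, 10.2 and 12.9 CPM unfed, against 4.45, 2.75 and 3.65 CPM fed (log2 1.76 ± 0.37, adjusted p = 0.0131). The Rieske oxygenase daf-36, at the start of dafachronic acid synthesis, had 3.44, 6.21 and 7.42 CPM unfed, against 17.98, 16.5 and 16.7 CPM fed (log2 -1.58 ± 0.33, adjusted p = 0.012). Of 164 cuticle collagens, 20 were lower and 1 higher, and the lower count ran from 2 (without unfed A or B) to 27 (25 without unfed C) with 1 library left out. The collagen gene col-142 had 18.3, 19.5 and 15.95 CPM unfed, against 59.2, 59.6 and 51.99 CPM fed (log2 -1.67 ± 0.30, adjusted p = 0.00572). lep-5, ptr-3, grd-3 and col-142 kept the call whichever 1 of the 12 libraries was left out (adjusted p up to 0.0332). lin-28 lost the call without unfed A or B or fed A, B or C (adjusted p up to 0.144). lag-2 lost the call without unfed A or fed B or C (adjusted p up to 0.0912). daf-36 lost the call without unfed A or B or fed A or B (adjusted p up to 0.0635).

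Immune and gut-lumen genes were higher or lower by member. The thaumatin family genes thn-1 and thn-2, whose relatives act as antimicrobial proteins in plants, were higher, with 5.79, 6.47 and 7.26 CPM unfed, against 0.914, 0.538 and 0.529 CPM fed for thn-1 (log2 3.35 ± 0.39, adjusted p = 0.000554) and 24.5, 38.3 and 65.3 CPM unfed, against 4.88, 2.87 and 4.1 CPM fed for thn-2 (log2 3.43 ± 0.40, adjusted p = 0.000554). Unfed C was the highest library for both. The infection response gene irg-5 had 18.96, 9.49 and 7.64 CPM unfed, against 126, 130.5 and 97.1 CPM fed (log2 -3.29 ± 0.53, adjusted p = 0.00417). The gene irg-8 had 11.7, 12.2 and 78.4 CPM unfed, against 536, 642 and 595 CPM fed (log2 -4.12 ± 0.64, adjusted p = 0.00358). The groups were apart in each, with unfed C lowest for irg-5 and highest among unfed libraries for irg-8. In dod-24, a gene first described downstream of DAF-16, the values were 5.74, 3.37 and 113 CPM unfed, against 110.3, 122 and 166 CPM fed (log2 -1.70 ± 1.06, adjusted p = 0.313), with unfed C at the fed level, and without that library it had a log2 fold change of -4.99 (adjusted p = 0.00367). The lysozyme lys-2 had 17.01, 24.7 and 60.6 CPM unfed, against 194, 149.7 and 253 CPM fed (log2 -2.55 ± 0.45, adjusted p = 0.00513). The saposin-like gene spp-17 had 5.29, 6.86 and 45.1 CPM unfed, against 228, 153 and 186 CPM fed (log2 -3.31 ± 0.72, adjusted p = 0.0179), while saposin-like spp-2 was higher with 67.95, 121 and 56.4 CPM unfed, against 32.7, 22.1 and 13.1 CPM fed (log2 1.86 ± 0.40, adjusted p = 0.0146). The invertebrate-type lysozyme ilys-3, which breaks bacterial cell walls, had 45.9, 47.2 and 8.2 CPM unfed, against 1.16, 0.538 and 0.344 CPM fed (log2 5.75 ± 1.07, adjusted p = 0.00924). Its relative ilys-2 had 73.5, 36.7 and 13.7 CPM unfed, against 3.05, 1.31 and 1.83 CPM fed (log2 4.33 ± 0.82, adjusted p = 0.01). Of 39 lysozymes and saposin-like genes, 4 were higher and 3 lower, 5 and 6 without unfed C. In the list of 20 thaumatin and immune genes 3 were higher and 6 lower, 2 and 10 without unfed C, and of 169 C-type lectins 8 were higher (4.73%) and 9 lower (5.33%), near the shares of all genes, with 8 and 22 without unfed C. thn-1, thn-2, irg-5, irg-8 and lys-2 kept the call whichever 1 of the 12 libraries was left out (adjusted p up to 0.0456). spp-17 lost the call without unfed A or B or fed A, B or C (adjusted p up to 0.102). spp-2 and ilys-3 lost the call without unfed B or fed B or C (adjusted p up to 0.107). ilys-2 lost the call without fed B or C (adjusted p up to 0.079). ilys-2 had a log2 fold change of 3.61 without unfed A. irg-8 had a log2 fold change of -5.74, lys-2 of -3.37 and spp-17 of -5.06 without unfed C.

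Detoxification families had calls in both directions. Of 67 UDP-glucuronosyltransferases, which add sugars to foreign compounds and hormones, 3 were higher (4.48%, near the 3.57% of all genes). Another 9 were lower (13.4%, beside 4.11% of all genes), and without unfed C the counts were 3 and 13. In ugt-15 the values were 7.43, 3.54 and 4.82 CPM unfed, against 0.853, 0.897 and 0.476 CPM fed (log2 2.87 ± 0.48, adjusted p = 0.00417), and in ugt-16 they were 14.5, 10.4 and 14.8 CPM unfed, against 45.2, 51.2 and 45.4 CPM fed (log2 -1.84 ± 0.27, adjusted p = 0.00221). Of 74 cytochromes P450, 2 were higher and 2 lower (2.7% each, under the shares of all genes), 5 and 2 without unfed C, with cyp-13A2 at 11.4, 13.1 and 29.3 CPM unfed, against 91.4, 98.7 and 113 CPM fed (log2 -2.50 ± 0.35, adjusted p = 0.0015). Of 49 glutathione S-transferases, 6 were higher (12.2%) and 4 lower (8.16%), 7 and 6 without unfed C, with gst-35 at 48.7, 83.4 and 23.3 CPM unfed, against 9.51, 16.5 and 8.28 CPM fed (log2 2.19 ± 0.42, adjusted p = 0.00744) and gst-38 at 2.44, 2.8 and 4.38 CPM unfed, against 16.03, 16.8 and 27.6 CPM fed (log2 -2.66 ± 0.35, adjusted p = 0.00117). With 1 library left out, the higher and lower counts fell as low as 1 and 4 for UDP-glucuronosyltransferases. They fell as low as 0 and 2 for cytochromes P450 and 1 and 2 for glutathione S-transferases. The haem handling gene hrg-2, which is raised by low haem in the epidermis, had 15.97, 28.6 and 25.5 CPM unfed, against 4.81, 4.66 and 7.67 CPM fed (log2 2.02 ± 0.39, adjusted p = 0.00829). The worm cannot make haem and takes it from its diet. Of 23 genes of metal and haem handling, 3 were higher and none lower, and 1 was higher without unfed C. ugt-15, ugt-16, cyp-13A2 and gst-38 kept the call whichever 1 of the 12 libraries was left out (adjusted p up to 0.033). gst-35 lost the call without unfed B (adjusted p up to 0.0601). hrg-2 lost the call without unfed B or fed A or B (adjusted p up to 0.0639). cyp-13A2 had a log2 fold change of -3.16 without unfed C.

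Among the largest changes at a mean of at least 10 CPM were genes without an assigned role. The MATH-domain gene math-38, below that level but named with the F-box and MATH list, had 19.9, 19.02 and 12.1 CPM unfed, against 0.731, 0.179 and 0.767 CPM fed (log2 4.84 ± 0.70, adjusted p = 0.00177). The gene K05F6.10 had 40.6, 26.3 and 11.4 CPM unfed, against 2.44, 0.12 and 0.476 CPM fed (log2 4.78 ± 0.81, adjusted p = 0.00605). The gene F42A10.7 had 91.8, 63.6 and 64.8 CPM unfed, against 7.19, 5.98 and 8.13 CPM fed (log2 3.36 ± 0.50, adjusted p = 0.00263). The gene K08D8.4 had 2.39, 1.75 and 6.04 CPM unfed, against 38.3, 37.2 and 58.9 CPM fed (log2 -3.73 ± 0.48, adjusted p = 0.00113). The F-box gene fbxa-24 was far more abundant, with 828, 844 and 403 CPM unfed, against 175, 115 and 149 CPM fed (log2 2.24 ± 0.36, adjusted p = 0.00329). The noncoding RNA tts-1, known to accumulate in long-lived daf-2 mutants, had 2058, 4055 and 474 CPM unfed, against 388, 236 and 216 CPM fed (log2 2.97 ± 0.62, adjusted p = 0.0146), with unfed C close to the fed libraries. In the F-box and MATH-domain list, 14 of 305 were higher (4.59%) and 5 lower (1.64%), beside 3.57% and 4.11% of all genes. Without unfed C the counts were 19 and 5 of 351, beside 785 and 1394 of all 19857 genes. They fell as low as 2 and 1 with 1 library left out. math-38, K05F6.10, F42A10.7, K08D8.4 and fbxa-24 kept the call whichever 1 of the 12 libraries was left out (adjusted p up to 0.0453). tts-1 lost the call without unfed B or fed B or C (adjusted p up to 0.0887). K05F6.10 had a log2 fold change of 6.15 without fed A. K08D8.4 had a log2 fold change of -4.56 without unfed C. tts-1 had a log2 fold change of 2.15 without unfed B.

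**Figure D4:**
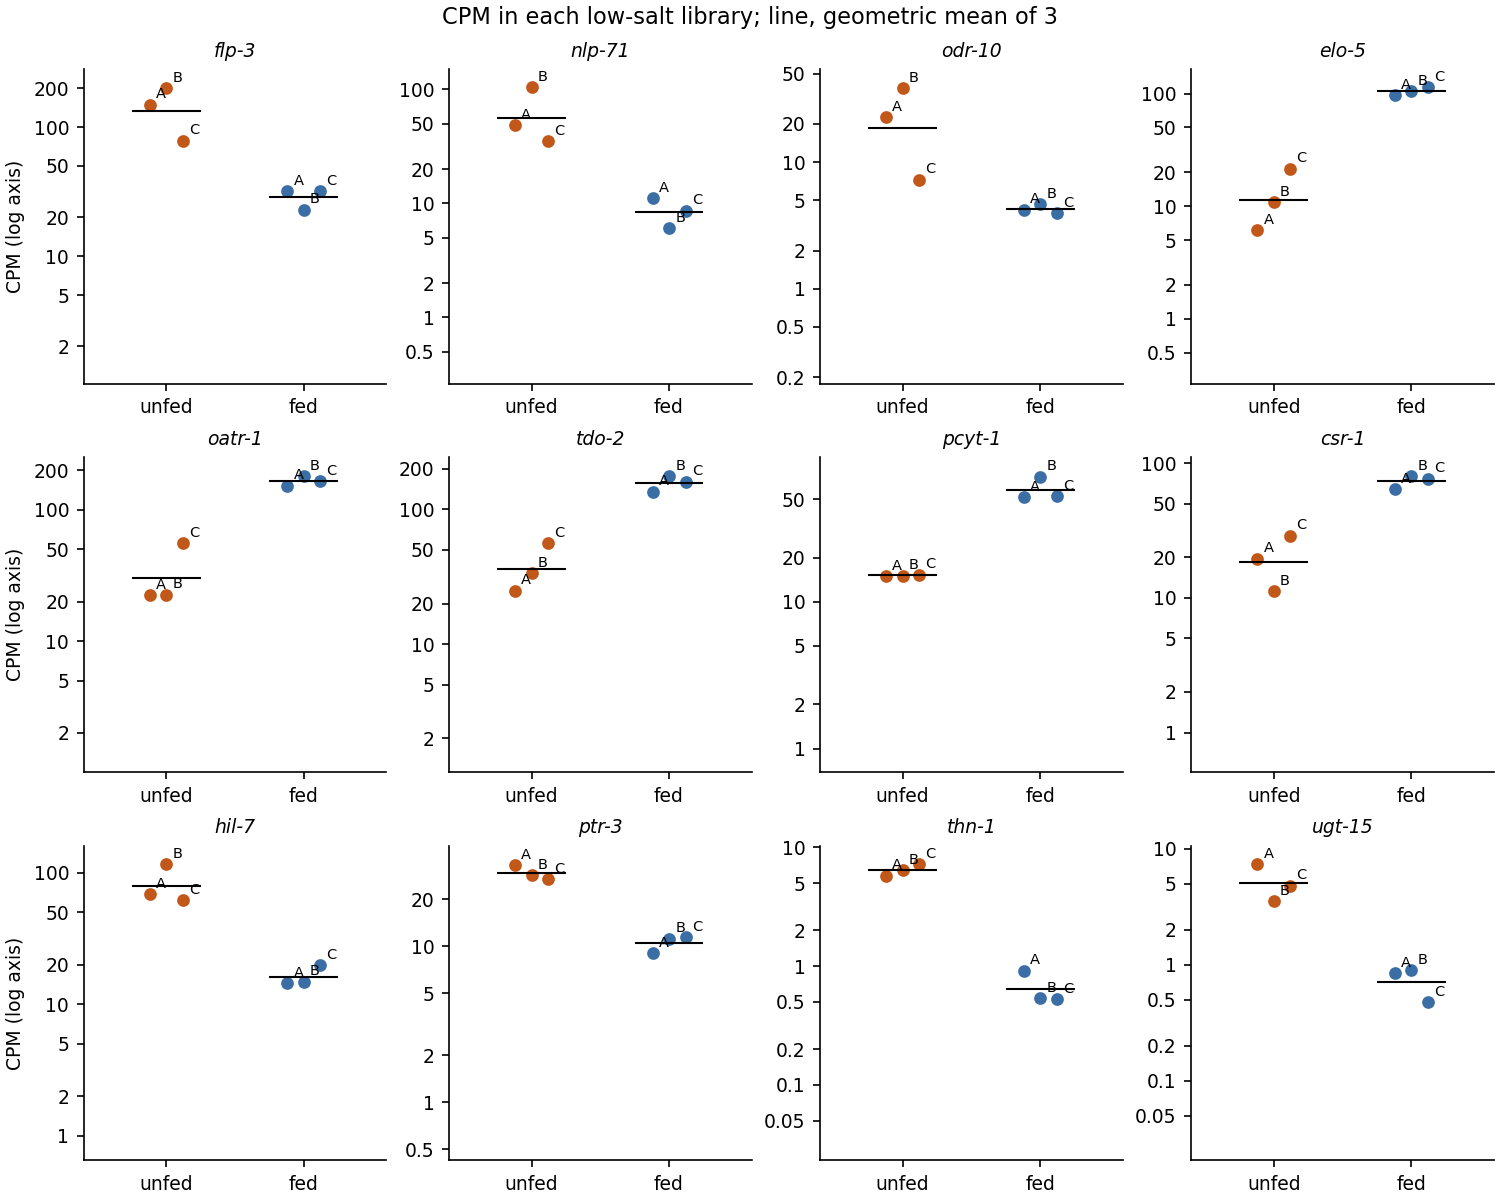
CPM on a log axis in each low-salt library for 12 genes named in the text, unfed on the left and fed on the right, letters for replicates and lines for the geometric mean of 3. The groups do not overlap in any panel, and unfed C lies between the other unfed libraries and the fed ones in 10 panels, at a level almost equal to unfed A and B for pcyt-1; for thn-1 it is the highest library and for ugt-15 it lies between unfed A and B.

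The place of unfed C was measured on genes called without it. For the 2174 of these genes whose unfed A and B mean differed from the fed mean by at least 0.5 on the log2(CPM + 1) scale, unfed C lay at a median of 0.45 of the way between the fed mean, at 0, and the mean of unfed A and B, at 1, with an interquartile range of 0.29 to 0.63. Choosing the genes on unfed A and B alone favours values below 1. Small heat shock genes lay at 1.59 (7 genes) and cytosolic HSP70 and HSP110 genes at 1.13 (5 genes), so that unfed C was at or past its group there. Germline genes lay at 0.64 (22 genes), branched-chain fatty acid synthesis at 0.53 (9 genes), flp genes at 0.46 (26 genes), aminoacyl-tRNA synthetases at 0.39 (21 genes) and cathepsins and digestive proteases at 0.10 (7 genes). All 10 called proteasome genes and all 9 called genes of the vacuolar proton pump lay nearer to the fed mean. These are descriptions of 1 library, with no test.

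The same contrast at 500 mM NaCl, in other libraries, gave a different picture. There the effect of food was called for 14 genes, 13 of them higher without food, and 1428 genes had an unadjusted p under 0.05. Of the 643 genes higher without food at 100 mM NaCl, 417 (64.9%) also had a positive log2 fold change at 500 mM, beside 61.0% of all genes tested. Of the 741 lower ones, 284 (38.3%) were negative at 500 mM, beside 39.0% of all genes. The median log2 fold change of the genes higher at 100 mM was 1.57 at 100 mM and 0.17 at 500 mM, and that of the genes lower at 100 mM was -1.32 at 100 mM and 0.15 at 500 mM, while that of all genes at 500 mM was 0.15.

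The food effect itself differed between salt levels for 360 genes, 2.0% of those tested (interaction term, adjusted p under 0.05), and 289 of them were called at 100 mM, 228 lower and 61 higher without food. Peroxisomal fatty acid oxidation held 9 of them among its 14 tested genes. The log2 fold change of maoc-1 was -1.06 ± 0.25 at 100 mM and 2.08 ± 0.27 at 500 mM (interaction adjusted p = 0.00136), that of daf-22 -0.96 ± 0.25 at 100 mM and 1.72 ± 0.25 at 500 mM (interaction adjusted p = 0.00412), and that of acox-1.2 -3.87 ± 0.47 at 100 mM and 1.43 ± 0.44 at 500 mM (interaction adjusted p = 0.00151). These genes had opposite signs at the 2 salt levels. For hil-7, the log2 fold change was 2.32 ± 0.30 at 100 mM and -0.14 ± 0.28 at 500 mM (interaction adjusted p = 0.00948), and for thn-1 3.35 ± 0.39 at 100 mM and -0.37 ± 0.32 at 500 mM (interaction adjusted p = 0.00419). For fat-5, a palmitate desaturase, it was 2.67 ± 0.31 at 100 mM and 2.25 ± 0.31 at 500 mM (interaction adjusted p = 0.647), so the fit did not separate its effects at the 2 levels. The flp list had 1 interaction call and a median log2 fold change of 1.50 at 100 mM and 0.34 at 500 mM. The interaction count was 924 without unfed C, 967 without unfed high-salt A, a shallow library of 5613260 reads on genes, and 2910 without both. It was 151, 76 and 178 without fed high-salt A, B or C. Of reads on genes at 500 mM NaCl, ribosomal RNA took 15.01%, 6.41% and 18.3% in the unfed libraries, against 9.24%, 40.01% and 81.9% in the fed ones, in the order A, B, C. That left 4770596 reads on other genes in unfed high-salt A, and 3148992 in fed high-salt C. The part of these differences in the comparison of salt levels was not tested.

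**Figure D5:**
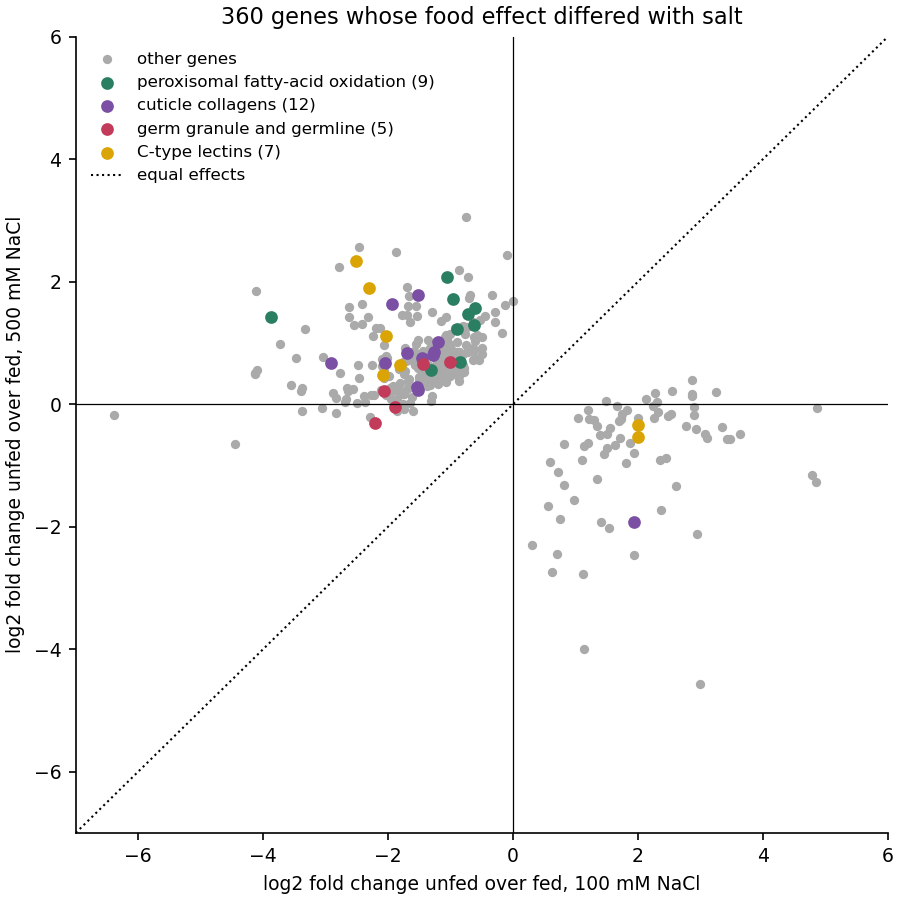
Log2 fold change of unfed over fed larvae at 100 mM NaCl (horizontal) and 500 mM NaCl (vertical) for the 360 genes whose food effect differed with salt, with 4 gene lists in colour and a dotted line at equal effects. The 9 peroxisomal genes lie left of 0 and above 0, that is, lower without food at 100 mM and higher without food at 500 mM.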

How the data were processed

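Polyadenylated RNA of whole larvae was sequenced from non-directional libraries amplified by 15 PCR cycles, per the labels' protocols, so a gene and its antisense or overlapping partner cannot be told apart. Bowtie 1.1.2, HTSeq, Cuffdiff and edgeR are named in the submitters' processing notes; a genome build was not found in these sources, and no coordinates are printed. The deposited count files hold raw reads per gene, and 5 summary lines per file were left out. The authors' deposited table gives log2 fold changes and p-values from edgeR's exact test, per its notes sheet, and was used only to compare calls.

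Gene names were matched through RefSeq and Ensembl tables for 43592 and a further 851 of 44968 features. Counts were fitted in edgeR 4.0.16 (R 4.3.3): filterByExpr with a minimum count of 10, trimmed mean of M values, and a robust quasi-likelihood model of all 12 libraries with 1 coefficient per group. The contrast was unfed minus fed at 100 mM NaCl, p-values were adjusted by the Benjamini-Hochberg method over all 18028 genes, and standard errors are the log2 fold change over the root of F. The steps were tested on simulated data. Depth differed between libraries, so low counts are least precise in the shallowest.

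Gene lists (69, by gene name) and the comparison itself were chosen with earlier results of these data known, and the name patterns of 3 lists (cytochrome P450, cytosolic ribosomal proteins, chemoreceptors) were corrected after their members were seen. Genes were named by a rule: 10 fixed genes, the 12 most raised and 12 most reduced called genes averaging 10 CPM or more with groups that do not overlap, and from each list up to 6 called members with the smallest p and up to 2 uncalled ones with the highest level. From these 397 genes those with a known role or a large change were taken. Alternatives were other scalings (relative log expression, upper quartile), no filter, DESeq2 1.42.0, ribosomal RNA genes left out, a replicate block, the 6 low-salt libraries alone, each library left out, and, added after seeing the data, unfed C and unfed high-salt A left out together.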

Additional observations from a re-analysis of the deposited data

Results flagged for a closer look

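For 44 of the genes named above, the food effect at 100 mM NaCl differed from that at 500 mM NaCl by the interaction term (adjusted p between 0.00136 and 0.0464). Values below are log2 fold changes of unfed over fed at 100 mM minus those at 500 mM with standard errors, so a negative value means a lower ratio at 100 mM. Peroxisomal fatty acid oxidation genes had differences of -5.30 ± 0.63 for acox-1.2, -3.14 ± 0.37 for maoc-1, -2.68 ± 0.35 for daf-22 and -2.12 ± 0.37 for dhs-28. In branched-chain fatty acid synthesis the differences were -3.81 ± 0.56 for elo-5, -1.72 ± 0.33 for hpo-8 and -1.57 ± 0.35 for bckd-1B. Among other lipid genes they were -2.76 ± 0.42 for ech-7, -1.80 ± 0.44 for kat-1, -2.94 ± 0.49 for far-2 and -2.25 ± 0.49 for lbp-6. In amino acid breakdown, one-carbon and central metabolism they were -1.75 ± 0.41 for fah-1, -2.19 ± 0.45 for tdo-2, -2.18 ± 0.53 for mel-32, -2.04 ± 0.36 for pcyt-1 and -2.24 ± 0.36 for idh-1. Mitochondrial ribosomal protein genes had differences of -1.76 ± 0.36 for mrpl-11 and -1.44 ± 0.34 for mrps-15. Chaperone genes gave -2.08 ± 0.50 for hsp-110, -2.52 ± 0.54 for hsp-12.3 and -2.15 ± 0.41 for hsp-4. Germline genes and linker histones gave -2.24 ± 0.47 for cey-2, -1.85 ± 0.45 for csr-1, -2.29 ± 0.53 for pgl-3, -2.09 ± 0.46 for iff-1, -2.30 ± 0.37 for hil-5 and 2.45 ± 0.41 for hil-7. Immune genes gave 3.72 ± 0.50 for thn-1, 3.99 ± 0.56 for thn-2, -5.97 ± 0.89 for irg-8 and -3.84 ± 0.65 for lys-2. Detoxification genes gave 2.74 ± 0.65 for ugt-15, -2.03 ± 0.39 for ugt-16 and -2.91 ± 0.49 for gst-38. Neuropeptide precursors gave 2.28 ± 0.51 for flp-3 and 2.46 ± 0.52 for nlp-71. Timing, patterning and hormone genes gave -6.22 ± 1.15 for lep-5, -1.75 ± 0.38 for grd-3, 1.43 ± 0.33 for ptr-3 and -2.34 ± 0.47 for daf-36. The remaining genes gave 6.11 ± 1.00 for math-38, 2.27 ± 0.49 for fbxa-24, 5.94 ± 1.07 for K05F6.10 and -4.71 ± 0.68 for K08D8.4. Unfed C, unfed high-salt A with the fewest reads on genes, and fed high-salt B and C with the most ribosomal RNA all enter this term, and the counts without each are given with the comparison of salt levels. Groups of 3 libraries were not examined for single outlying values.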

How the results depend on the processing

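The number of genes called without food at 100 mM NaCl was 1384, and 3524 with only the 6 low-salt libraries, 2658 with DESeq2, and 5016 without unfed C and unfed high-salt A together. It ranged from 218 (without fed B) to 2989 (without unfed high-salt A) when 1 library was left out, with 220 without unfed B, 333 without unfed A, 306 without fed C, 376 without fed A, 2179 without unfed C and 889 without fed high-salt B. The number of genes whose food effect differed with salt was 360, and 1225 with DESeq2, 1019 with no filter, 585 with a replicate block and 2910 without unfed C and unfed high-salt A together, with a range from 63 (without fed B) to 967 (without unfed high-salt A) when 1 library was left out. The other alternatives left both counts within 1.5 times. The labels do not say whether the letters A to C pair the samples. Deviations of unfed and fed libraries from their group means correlated over genes at 0.14 for A, -0.05 for B and 0.18 for C. With unfed C apart from its group, these values cannot settle whether the letters pair the samples. The replicate block gave 1673 calls at 100 mM. All 107 called genes named in the text kept their direction under each of these alternatives. They also all kept the call with DESeq2, relative log expression factors and the 6 low-salt libraries, whereas 106 kept it with the replicate block (all but acs-2), 104 with upper-quartile factors (all but dhs-28, gob-1 and mex-5), 103 without ribosomal RNA genes (all but cyd-1, dhs-28, pghm-1 and tnc-2), 99 with no filter (all but those 4, ceh-36, daf-22, egl-3 and egl-21), 50 without fed B and 50 without unfed B. The cause of these changes was not tested.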
